A study of Mus musculus with 7 samples.

Results

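The genes described here encode the enzymes and the chaperone that hydroxylate, fold and cross-link collagen. They were chosen by symbol as 10 named genes out of 56854 gene identifiers counted in every library: the lysyl oxidases Lox, Loxl1, Loxl2, Loxl3 and Loxl4, the lysyl hydroxylases Plod1 and Plod2, the prolyl hydroxylase subunits P4ha1 and P4ha2, and the collagen chaperone Serpinh1. Their RNA was measured in whole shoulder joints of 7 mice, 1 library per mouse, 2 weeks after the supraspinatus tendon of the left shoulder was repaired. All 7 mice had this operation, so the values hold no comparison with an intact joint. The groups were wild type mice (n = 3) and mice labelled Tnc-/- (n = 4), Tnc being the gene of tenascin C, a glycoprotein of the extracellular matrix made in healing tendon. Strain, sex and age are not given in the sources used here. A whole joint holds tendon, muscle, cartilage, bone and marrow, so throughout, fewer cells of a type cannot be told apart from less RNA per cell.

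Collagen chains are modified in the endoplasmic reticulum before they leave the cell. Prolyl 4-hydroxylase hydroxylates prolines that stabilise the triple helix, lysyl hydroxylases hydroxylate lysines that later become cross-links, and Serpinh1 (Hsp47) binds the folded helix until it is exported. Outside the cell, lysyl oxidases convert lysines and hydroxylysines of collagen and elastin to aldehydes, which react to form the covalent cross-links that give tendon its strength.

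The libraries held 13464057 to 28191101 gene counts, and each member had between 195 and 28175 counts in every library. Tnc itself had 4394 to 8137 counts in the wild type libraries and 698 to 1051 in the Tnc-/- libraries (log2 fold change -3.08, SE 0.21, edgeR adjusted p = 2.8e-04), so reads on the targeted gene remained in each Tnc-/- library. Wild type libraries 2 and 3 stood apart. Over 17791 tested genes their correlation with the Tnc-/- libraries on log2 CPM (counts per 1000000 counts of the scaled library) was 0.731 to 0.797, against 0.960 to 0.964 for wild type library 1 (genes are not independent replicates). Receptor genes of smell and pheromone sensing, which a joint should hardly express, had a summed level of 1399 CPM in wild type library 2 and 982 CPM in wild type library 3, against 89.1 CPM in wild type library 1 and 36.5 to 43.9 CPM in Tnc-/-. Every wild type library thus lay above every Tnc-/- library, so as a covariate this receptor background is confounded with genotype. The files of the genotypes list different gene sets (126 identifiers occur only in wild type, 87 only in Tnc-/-), so an effect of the counting run cannot be told apart from one of genotype. Of the tissue markers examined, Tnmd, a tendon gene, lay between 182 and 361 CPM, while Scx, a tendon transcription factor, had 0 counts in all 7 libraries. So did Alas2, an enzyme of haem synthesis in red cell precursors, although the haemoglobin gene Hba-a1 lay at 1996 to 9651 CPM, and Adm of the hypoxia list; whether these genes were unexpressed or not counted was not tested.

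Promoter sequences of RefSeq (build GRCm38.p6) were matched for 5 of the 10 members. Entries on the chromosome that carries Lox were left out of that search, so none was sought for Lox. Of the 5 matched, the 3 shown are those that hold the core of the hypoxia response element, ACGTG, within 250 bases before the transcription start. P4ha1 and P4ha2 encode alternative subunits of the same enzyme, and the ratio of their counts is described below. Serpinh1 was the most abundant member. Capitals mark matches to ACGTG and to the GC box GGGCGG on either strand. The remaining motifs searched were GAANNTTC (heat shock element), CCAAT and TATAAA, which had no match in these 3 windows.
Serpinh1, chr7:99353240-99353489, minus strand: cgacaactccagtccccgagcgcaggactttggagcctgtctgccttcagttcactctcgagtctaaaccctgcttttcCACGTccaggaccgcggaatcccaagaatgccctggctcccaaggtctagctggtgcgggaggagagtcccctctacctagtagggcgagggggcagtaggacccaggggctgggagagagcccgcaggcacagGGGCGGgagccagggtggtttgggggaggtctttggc
P4ha1, chr10:59323046-59323295, plus strand: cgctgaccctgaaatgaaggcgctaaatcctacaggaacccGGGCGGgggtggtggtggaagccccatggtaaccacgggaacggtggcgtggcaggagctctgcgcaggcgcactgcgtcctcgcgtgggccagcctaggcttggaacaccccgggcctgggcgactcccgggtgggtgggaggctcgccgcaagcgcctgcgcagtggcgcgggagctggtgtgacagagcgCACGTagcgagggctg
P4ha2, chr11:54100674-54100923, plus strand: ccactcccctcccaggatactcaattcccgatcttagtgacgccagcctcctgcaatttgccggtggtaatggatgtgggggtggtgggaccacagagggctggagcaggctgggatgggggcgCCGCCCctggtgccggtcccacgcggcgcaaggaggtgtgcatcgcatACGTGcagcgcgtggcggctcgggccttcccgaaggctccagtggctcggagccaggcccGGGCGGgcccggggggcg
The ACGTG core occurred in 16.6% of 32841 promoter windows of the same length and the GC box in 32.7%. Each of the 3 windows held 1 ACGTG core. The match in P4ha2 reads ACGTG in the direction of the gene, from 78 to 74 bases before the start. In P4ha1 it reads CACGT, 16 to 12 bases before the start, and in Serpinh1 CACGT, 171 to 167 bases before it. Letters that match a motif do not show that a factor binds there.

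None of the 10 members differed between the genotypes at an adjusted p under 0.05 (edgeR quasi-likelihood test, Benjamini-Hochberg over all genes), while 29.0% of all tested genes did. By direction, the share of all genes called was 10.3% higher and 18.7% lower in Tnc-/-. At an unadjusted p under 0.05 the count was also 0 of 10, against 42.3% of all genes. The groups overlapped in all 10 members, whereas 35.1% of all genes had groups that did not overlap (17.4% with Tnc-/- lower). DESeq2 called 1 member, Lox, and 35.1% of all genes, and limma voom called 0 members and 5.47% of all genes. The median log2 fold change was 0.038 over the members and -9.0e-04 over all tested genes, and 4 of 10 members had a value below 0. All 10 passed the filter on low counts, and averaged 5 CPM or more in both groups. Without wild type libraries 2 and 3, the edgeR values of the members ran from -0.72 (Lox) to 0.15 (Loxl4). The lone wild type library is then assumed to vary like the Tnc-/- libraries. Scaling by library totals shifted the median of all genes to -0.22 and left 1 of 10 members above 0. With that scaling the calls over all genes were 992 higher and 4410 lower in Tnc-/-, against 1830 and 3329 with the main scaling. The balance turned with limma voom (707 higher and 266 lower) and with edgeR and Bonferroni adjustment (18 higher and 4 lower).

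**Figure D1:**
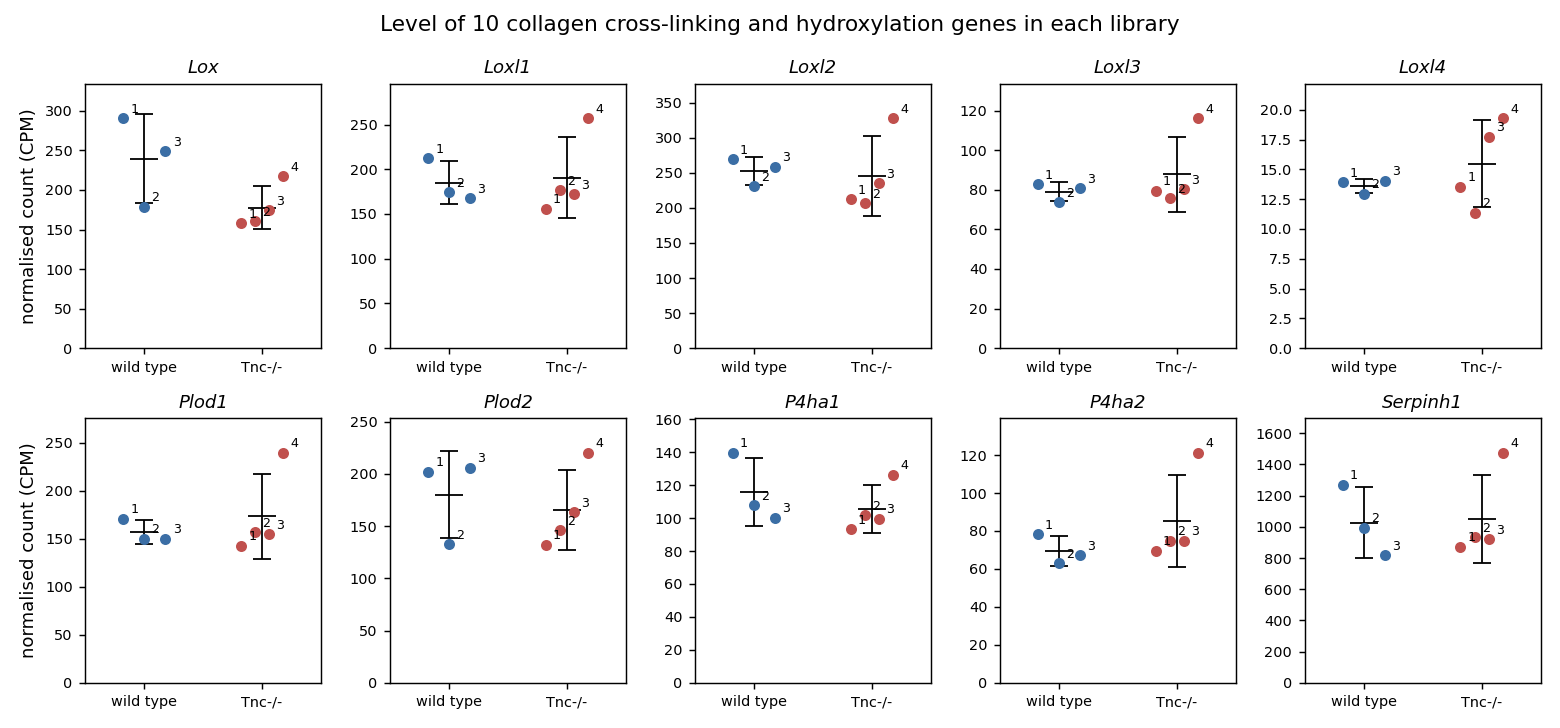
Normalised count in CPM (vertical axes, from 0) of each gene in the 3 wild type and 4 Tnc-/- libraries; points are libraries with their replicate number, and bars give the mean ± SD. Tnc-/- library 4 is the highest Tnc-/- library in all 10 panels, and the genotypes overlap in each.

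Lox (ENSMUSG00000024529), the founding lysyl oxidase and the one most tied to fibrillar collagen and elastin, reached 291, 179 and 249 CPM in the 3 wild type libraries, in order of replicate number, and 158, 160.3, 175 and 217 CPM in the 4 Tnc-/- libraries; this order is kept for the genes that follow. Its 2 highest values were wild type and its 3 lowest Tnc-/-, and the groups overlapped because wild type library 2 lay below Tnc-/- library 4. Wild type averaged 239.5 ± 56.5 CPM (SD, n = 3) and Tnc-/- averaged 178 ± 27.5 CPM (SD, n = 4). The log2 fold change was -0.43 (SE 0.19, 95% interval -0.87 to 0.011, edgeR adjusted p = 0.126). Of the 21 alternatives, those with Bonferroni adjustment repeat the fold change of another fit. The value was below 0 in all 21, from -0.92 (receptor background as a covariate) to -0.18. It passed the threshold in 3 of them: DESeq2 (-0.47, adjusted p = 0.0478), edgeR with library totals (-0.65, adjusted p = 0.0229; 30.4% of all genes called) and edgeR on genes spanning up to 30 kb (-0.64, adjusted p = 0.0200; 19.9% of 10049 genes called). Exons of Lox share 30 bases (0.628%) with the antisense gene AC161119.1, which had 67, 277 and 160 counts in wild type and 34 to 84 counts in Tnc-/-. Leaving out wild type library 1 moved the value of Lox to -0.18, and leaving out wild type libraries 2 and 3 together moved it to -0.72 (edgeR adjusted p = 0.0571).

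Loxl2 and Loxl1 were at levels like that of Lox. Loxl2 (ENSMUSG00000034205), which also acts on basement membrane collagen, was at 269, 231 and 259 CPM in wild type and at 212, 207, 235 and 328 CPM in Tnc-/-. The first 2 Tnc-/- libraries lay below every wild type library and the fourth above every one. The log2 fold change was -0.043 (SE 0.19, 95% interval -0.47 to 0.38, edgeR adjusted p = 0.883). Loxl1 (ENSMUSG00000032334), which is needed for the upkeep of elastic fibres, was at 212, 174 and 168 CPM in wild type and at 156, 177, 172 and 257 CPM in Tnc-/-, so that the highest and the lowest library were both Tnc-/-. Its log2 fold change was 0.043 (SE 0.19, 95% interval -0.40 to 0.49, edgeR adjusted p = 0.887).

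The remaining lysyl oxidases were less abundant. Loxl3 (ENSMUSG00000000693), which is needed for normal development of palate and spine, was at 82.8, 73.7 and 80.8 CPM in wild type and at 79.6, 75.8, 80.3 and 116 CPM in Tnc-/-. Apart from Tnc-/- library 4, the libraries of both genotypes covered the same narrow range. The log2 fold change of Loxl3 was 0.15 (SE 0.17, 95% interval -0.23 to 0.54, edgeR adjusted p = 0.526). Exons of Loxl3 share 535 bases (11.6% of its exon length in GENCODE M21) with Htra2 on the opposite strand, which rose from 14.3 ± 2.51 CPM (SD, n = 3) in wild type to 28.0 ± 3.92 CPM (SD, n = 4) in Tnc-/- (log2 fold change 0.97, edgeR adjusted p = 0.00992). Whether the counting used strand is not given in the sources used here, so reads on the shared bases cannot be told apart. Loxl4 (ENSMUSG00000025185) was at 13.9, 13.0 and 14.0 CPM in wild type and at 13.5, 11.4, 17.7 and 19.3 CPM in Tnc-/-. Its wild type libraries lay close together and inside the wider Tnc-/- range (log2 fold change 0.18, SE 0.24, 95% interval -0.35 to 0.72, edgeR adjusted p = 0.590).

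The lysyl hydroxylases did not differ past the threshold either. Plod1 (ENSMUSG00000019055), which hydroxylates lysines within the helix, was at 171, 150.1 and 149.9 CPM in wild type and at 143, 157, 155 and 239 CPM in Tnc-/-. Only Tnc-/- library 4 lay outside a range of 143 to 171 CPM. The log2 fold change of Plod1 was 0.14 (SE 0.19, 95% interval -0.30 to 0.58, edgeR adjusted p = 0.613). Plod2 (ENSMUSG00000032374), which hydroxylates lysines of the telopeptides at the chain ends and so sets the type of cross-link, was at 202, 133 and 206 CPM in wild type and at 132, 146, 163 and 220.2 CPM in Tnc-/-. Wild type library 2 lay beside the lowest Tnc-/- library, and the other wild type libraries lay beside the highest. The log2 fold change of Plod2 was -0.12 (SE 0.22, 95% interval -0.62 to 0.38, edgeR adjusted p = 0.705). Exons of Plod2 share 346 bases (6.42%) with Gm38391 and those of Loxl2 share 301 bases (5.57%) with Gm27177, both on the opposite strand, which had at most 40 and 6 counts in a library.

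The catalytic subunits of prolyl 4-hydroxylase had fold changes of opposite sign, apart from the fits without wild type library 1 (P4ha1 0.11) and with receptor background as a covariate (P4ha2 -0.022). P4ha1 (ENSMUSG00000019916) was at 139.5, 108 and 100.2 CPM in wild type and at 93.3, 102, 99.7 and 126 CPM in Tnc-/-, and 3 of 4 Tnc-/- libraries lay below the middle wild type library. Its log2 fold change was -0.14 (SE 0.16, 95% interval -0.51 to 0.23, edgeR adjusted p = 0.551). P4ha2 (ENSMUSG00000018906) was at 78.4, 63.0 and 67.4 CPM in wild type and at 69.7, 74.8, 74.8 and 121 CPM in Tnc-/-, and every Tnc-/- library lay above 2 of the 3 wild type libraries. Its log2 fold change was 0.29 (SE 0.21, 95% interval -0.18 to 0.76, edgeR adjusted p = 0.321), and it was 0.068 without Tnc-/- library 4 and 0.48 without wild type library 1 (edgeR adjusted p = 0.0587).

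Serpinh1 (ENSMUSG00000070436) was the most abundant member. It was at 1270.0, 995 and 817 CPM in wild type and at 871, 934, 921 and 1474 CPM in Tnc-/-. The lowest library was wild type and the highest Tnc-/-, and means of 1027 ± 228 CPM (SD, n = 3) and 1050.0 ± 284 CPM (SD, n = 4) corresponded to 0.032 on the log2 scale (SE 0.25, 95% interval -0.53 to 0.59, edgeR adjusted p = 0.936). The 95% intervals of the 10 members reach from -0.87 to 0.76 in all.

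**Figure D2:**
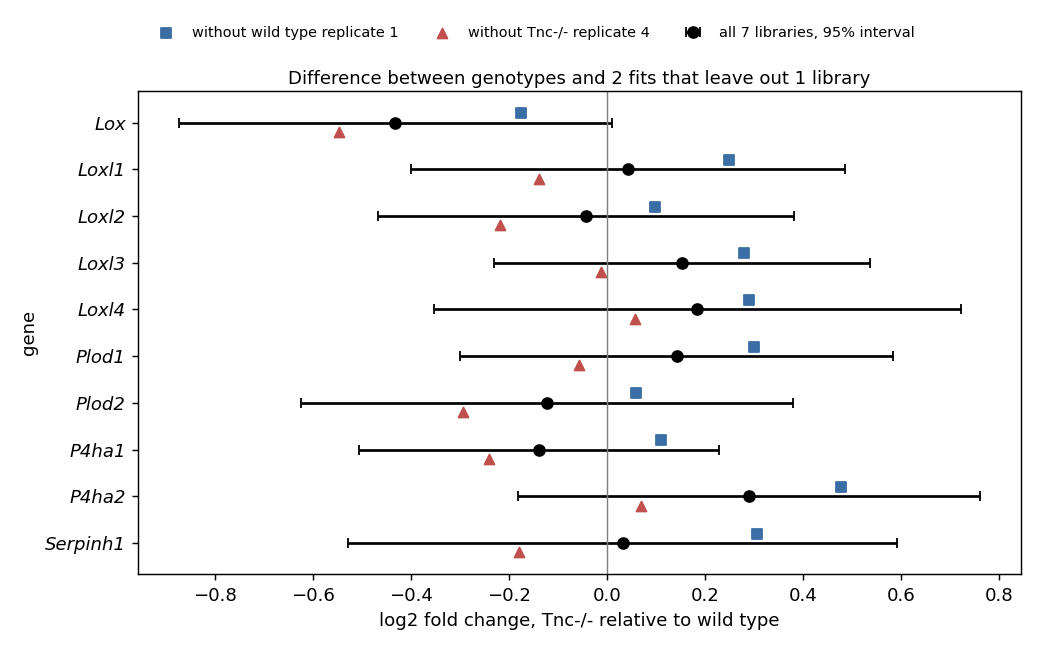
Log2 fold change of each gene (horizontal axis; Tnc-/- relative to wild type) with all 7 libraries (black, bars are 95% intervals), without wild type replicate 1 (blue squares) and without Tnc-/- replicate 4 (red triangles). All 10 intervals span 0, and each gene lies further to the right without wild type replicate 1 and further to the left without Tnc-/- replicate 4.

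Levels can be set against each other between genes only per length. Over all 7 libraries and per kilobase of exon in GENCODE M21, Serpinh1 was highest at a mean of 426 CPM per kb. Loxl1 (57.1 CPM per kb), Loxl2 (46.0 CPM per kb) and Lox (42.7 CPM per kb) came next. Loxl1 lay above Loxl2 in 7 of 7 libraries, but Loxl2 lay above Lox in only 5. That order turned between the groups: Lox averaged 50.1 and Loxl2 46.8 CPM per kb in wild type, against 37.2 and 45.4 CPM per kb in Tnc-/-. Plod2 (31.9 CPM per kb), P4ha1 (26.7 CPM per kb) and Plod1 (24.6 CPM per kb) followed, each above the next in 6 of 7 libraries or, for Plod1 above Loxl3, in 7. Loxl3 (18.3 CPM per kb), P4ha2 (12.6 CPM per kb) and Loxl4 (3.49 CPM per kb) were lowest and kept that order in all 7 libraries.

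Within each genotype, most members were high in the same mouse. In all 10 members Tnc-/- library 4 was the highest of its group, which held for 28.8% of the 14214 genes that averaged 5 CPM or more in a group. It lay above the mean of the other Tnc-/- libraries by 0.36 (P4ha1) to 0.73 (P4ha2) log2 units, with a median of 0.59 over the members and of -0.0069 over all tested genes. Tnc-/- libraries 1 to 3 were close to each other in some members, such as Serpinh1 at 871 to 934 CPM and P4ha2 at 69.7 to 74.8 CPM, and less so in others, such as Plod2 at 132 to 163 CPM and Loxl4 at 11.4 to 17.7 CPM. In wild type, library 1 was the highest in 8 of 10 members, against 45.9% of those genes. Tnc-/- library 4 and wild type library 1 were the highest pair of all 7 libraries in 7 of 10 members, against 6.37% of those genes.

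The same 2 libraries were the highest pair in 6 of 12 collagen and elastin genes and in the sum of the main collagens. The summed level of Col1a1, Col1a2 and Col3a1, the main fibrillar collagen chains of tendon, was 44985, 27548 and 34355 CPM in wild type and 30105, 33709, 34634 and 54132 CPM in Tnc-/-. Tnc-/- library 4 was the highest Tnc-/- library in 12 of 12 substrate genes and in 8 of 8 cartilage markers, in 7 of 9 fibroblast and tendon markers (Col1a1 and Col1a2 among them), and in 5 of 8 macrophage and 5 of 8 osteoblast and bone markers. It was highest in 1 of 6 endothelial markers, and the count was 0 of 10 for skeletal muscle markers, 0 of 7 for erythroid markers and 0 of 8 for neutrophil and marrow markers. Wild type library 1 was highest of its group in 12 of 12 substrate genes, 9 of 10 skeletal muscle, 7 of 7 erythroid, 8 of 8 neutrophil and marrow, 8 of 8 macrophage, 6 of 8 cartilage, 5 of 8 osteoblast and bone, 7 of 9 fibroblast and tendon and 4 of 6 endothelial markers. Cartilage markers summed to 3498 CPM in Tnc-/- library 4, against 1271 to 2419 CPM in the other Tnc-/- libraries and 1442 to 2411 CPM in wild type. The fibroblast and tendon markers other than Col1a1 and Col1a2 summed to 7812 CPM there, against 5472 to 6337 CPM in the other Tnc-/- libraries and 6070 to 8285 CPM in wild type, so that wild type library 1 and not Tnc-/- library 4 was highest. The part of tissue composition in the level of the members was not tested.

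**Figure D3:**
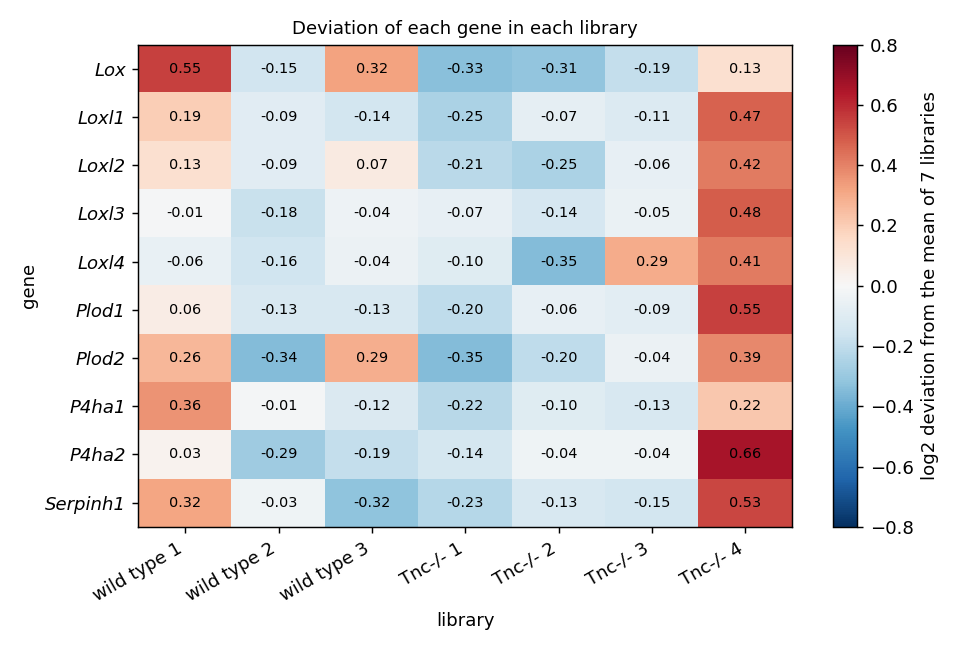
Log2 deviation of each gene (rows) in each library (columns) from that gene's mean over the 7 libraries; red is above the mean and blue below. Tnc-/- library 4 is above the mean in all 10 genes, from 0.13 for Lox to 0.66 for P4ha2, and wild type library 2 is below it in all 10.

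Among the members, the closest pattern over the 7 libraries on log2 CPM was between Plod1 and P4ha2 (Pearson r = 0.967), followed by Loxl1 with Plod1 (r = 0.963) and Serpinh1 with Loxl1 (r = 0.962). The member closest to Lox was Plod2, at r = 0.830, and the closest to Loxl4 was Loxl3, at r = 0.769. Over all pairs of members r ranged from 0.217 (Lox with Loxl4) to 0.967. These values describe 7 libraries between which tissue make-up and depth also varied. Among 12685 genes searched, those most like Serpinh1 were Gpx7 (r = 0.989), a peroxidase of the endoplasmic reticulum, Fxyd6 (r = 0.975) and Osr2 (r = 0.974). Those most like Lox were Cybrd1 (r = 0.986), Kdelr2 (r = 0.985), a receptor that returns proteins to the endoplasmic reticulum, and Laptm4a (r = 0.980). The genes most like Plod2 were Myof (r = 0.983), Slc35f5 (r = 0.963) and Neo1 (r = 0.962). For P4ha1 they were Armcx1 (r = 0.987), Golt1b (r = 0.968) and Mapk8ip1 (r = 0.965).

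Ratios of counts within a library do not depend on how libraries are scaled, and 5 were compared. The ratio of P4ha1 to P4ha2 was 1.78, 1.71 and 1.49 in wild type and 1.34, 1.36, 1.33 and 1.04 in Tnc-/-. The highest Tnc-/- ratio was thus below the lowest of wild type. The mean log2 ratio differed by -0.39 (Tnc-/- minus wild type; two-sided exact permutation p = 0.0571, adjusted over 5 ratios 0.143); with 3 and 4 libraries this test cannot give a smaller p. The lowest was Tnc-/- library 4, and without it the difference was -0.30. Without wild type libraries 2 and 3, a comparison with no test, it was -0.50. Groups that did not overlap were common, at 35.1% of single genes in CPM, and the share over other pairs of genes was not counted.

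The ratio of Loxl1 to Lox was 0.730, 0.974 and 0.675 in wild type and 0.985, 1.10, 0.986 and 1.18 in Tnc-/-. The groups did not overlap, Tnc-/- being higher, although wild type library 2 came close (log2 difference 0.44, two-sided exact permutation p = 0.0571, adjusted p = 0.143). The ratio of Loxl2 to Lox was 0.926, 1.29 and 1.04 in wild type and 1.34, 1.29, 1.35 and 1.51 in Tnc-/-, where wild type library 2 and Tnc-/- library 2 had nearly the same value (log2 difference 0.35, two-sided exact permutation p = 0.114, adjusted p = 0.190). Wild type library 2 was thus the wild type library nearest to Tnc-/- in both ratios to Lox, which share their denominator. Without wild type libraries 2 and 3 the log2 differences were 0.54 for Loxl1 to Lox and 0.56 for Loxl2 to Lox. The ratio of Plod2 to Plod1 was 1.18, 0.884 and 1.37 in wild type and 0.929, 0.934, 1.06 and 0.920 in Tnc-/-, and the groups overlapped (log2 difference -0.23, two-sided exact permutation p = 0.286, adjusted p = 0.357).

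Serpinh1 was also set against its clients. It had 28.2, 36.1 and 23.8 counts per 1000 counts of Col1a1, Col1a2 and Col3a1 in wild type and 28.9, 27.7, 26.6 and 27.2 in Tnc-/-. The Tnc-/- libraries lay within a narrow range inside that of wild type, library 4 among them (log2 difference -0.068, two-sided exact permutation p = 0.686, adjusted p = 0.686). The other members were set against the same collagen counts after the values were seen, so no test is given. Lox had 6.47, 6.50 and 7.24 counts per 1000 collagen counts in wild type and 5.26, 4.75, 5.04 and 4.02 in Tnc-/-. It was the 1 member of 10 whose groups did not overlap on this scale, and 17.9% of all tested genes did not overlap (11.1% lower in Tnc-/-). Although highest of its group for Lox in CPM, Tnc-/- library 4 was lowest per collagen count. All 10 members together had 60.7, 76.9 and 61.4 counts per 1000 collagen counts in wild type and 64.1, 60.7, 60.5 and 57.6 in Tnc-/-.

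**Figure D4:**
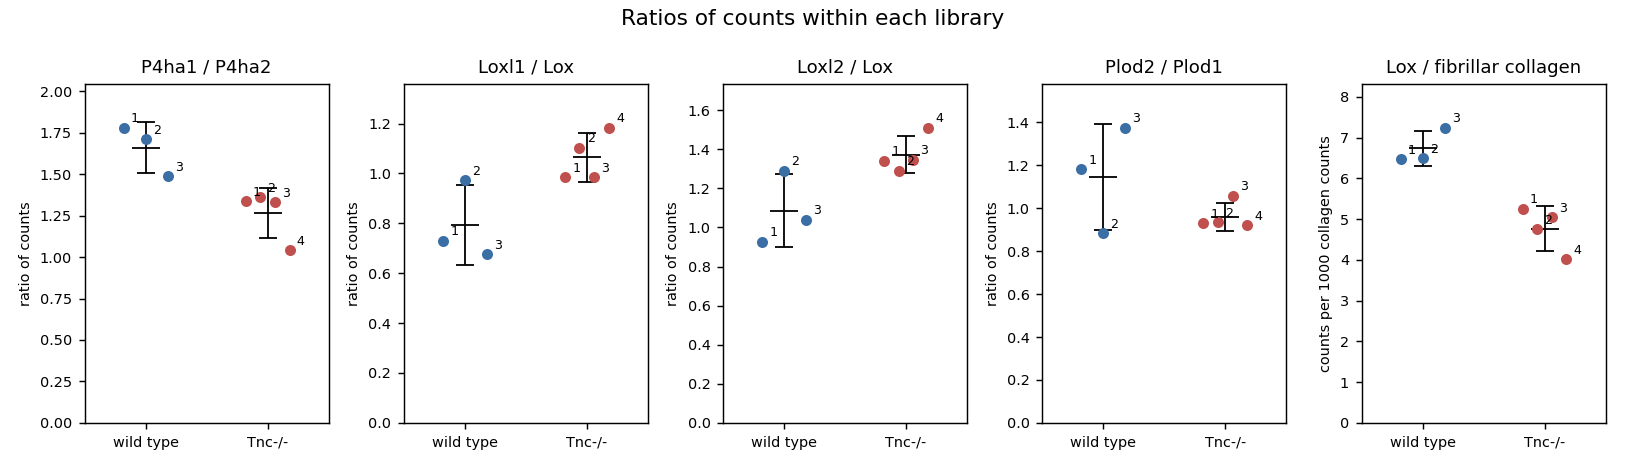
Ratios of raw counts within each library (vertical axes, from 0) for P4ha1 to P4ha2, Loxl1 to Lox, Loxl2 to Lox and Plod2 to Plod1, and counts of Lox per 1000 counts of Col1a1, Col1a2 and Col3a1; points are libraries with their replicate number, and bars give the mean ± SD. The genotypes do not overlap for P4ha1 to P4ha2, for Loxl1 to Lox and for Lox per collagen count. How often the ratios of other gene pairs do so was not counted.

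Other genes of collagen biosynthesis were read from the same fit. Of 33 listed genes, all tested, 6 were past the threshold, 1 higher and 5 lower in Tnc-/-, or a smaller share than the 29.0% of all genes; the median log2 fold change was 0.074. Sec23a was the 1 gene of these whose call held without each library in turn. It encodes a coat protein of the vesicles that export collagen, and it was at 52.3, 54.7 and 56.9 CPM in wild type and at 31.3, 35.3, 38.1 and 36.4 CPM in Tnc-/-. Every Tnc-/- library lay below every wild type library (log2 fold change -0.63, SE 0.12, edgeR adjusted p = 0.00908), and with 1 library left out the adjusted p was at most 0.0413. The call was lost with receptor background as a covariate (-0.56, edgeR adjusted p = 0.178) and with edgeR and Bonferroni adjustment. Without wild type libraries 2 and 3 together the value of Sec23a was -0.57.

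Adamts14, a protease that removes the amino-terminal propeptide of procollagen, rose from 19.8 ± 5.20 CPM (SD, n = 3) to 33.5 ± 5.69 CPM (SD, n = 4; log2 fold change 0.75, SE 0.22, edgeR adjusted p = 0.0342). Lum, a proteoglycan that binds collagen fibrils, fell from 1418 ± 293 to 916 ± 139 CPM (log2 fold change -0.63, SE 0.21, edgeR adjusted p = 0.0482). The other calls were lower in Tnc-/- and had their wild type level mainly in libraries 2 and 3. Tll1, a protease of the carboxy-terminal propeptide, was at 4.78, 24.7 and 23.4 CPM in wild type and at 3.81 to 5.24 CPM in Tnc-/- (log2 fold change -1.93, edgeR adjusted p = 0.0229). Adamts3, a relative of Adamts14, was at 9.28, 31.8 and 21.1 CPM in wild type and at 6.05 to 9.78 CPM in Tnc-/- (log2 fold change -1.35, edgeR adjusted p = 0.0315). P3h2, a prolyl 3-hydroxylase, was at 18.8, 50.3 and 27.9 CPM in wild type and at 13.7 to 19.5 CPM in Tnc-/- (log2 fold change -0.99, edgeR adjusted p = 0.0411). In these 3 genes wild type library 1 lay within or next to the Tnc-/- range. The count of 6 fell to 2 without wild type library 2 and to 1 without wild type library 3 or any single Tnc-/- library. It rose to 14 (9 higher and 5 lower) without wild type library 1. The count over all genes fell and rose alike. It was 2896 of 18114 without wild type library 2, 2229 of 18116 without wild type library 3 and 14113 of 21989 without wild type library 1. With library totals 9 listed genes were called, all lower, and 5402 of all 17791 genes. Apart from Sec23a, each of the 5 genes called in the main fit lost its call in 6 of the 7 fits that left out 1 library. Its log2 fold change kept its sign in all 7. The value ranged from -2.29 to -1.60 for Tll1, from -1.60 to -0.89 for Adamts3, from -1.17 to -0.52 for P3h2, from -0.79 to -0.42 for Lum and from 0.57 to 1.04 for Adamts14. Among these 7 fits, the smallest change of Adamts3 and P3h2 came without wild type library 2. With receptor background as a covariate the sign turned for Tll1 (0.61), Adamts3 (0.28) and P3h2 (0.16). Adamts14 was then 0.20 and Lum -1.01. Without wild type libraries 2 and 3 together, the values were -0.057 for Tll1, -0.20 for Adamts3, -0.22 for P3h2, 0.43 for Adamts14 and -0.84 for Lum.

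Of 12 substrate genes, 3 were past the threshold, all higher in Tnc-/-, against 29.0% of all genes called and 10.3% called higher. These were Col11a2 (log2 fold change 1.20, SE 0.30, edgeR adjusted p = 0.0193), Col4a1 (0.74, SE 0.22, adjusted p = 0.0352) and Col5a3 (0.69, SE 0.22, adjusted p = 0.0461), named after their values were seen. Leaving out 1 library gave 0.99 to 1.63 for Col11a2, 0.59 to 1.02 for Col4a1 and 0.55 to 1.01 for Col5a3. With receptor background as a covariate they were 0.42, 0.31 and 0.099. The chains that the members chiefly modify in tendon did not differ past the threshold. The log2 fold change was 0.27 for Col1a1 (SE 0.30, edgeR adjusted p = 0.542; 0.032 without Tnc-/- library 4, 0.10 without wild type library 2 and 0.59 without wild type library 1), 0.045 for Col1a2 (SE 0.29, adjusted p = 0.922) and -0.011 for Col3a1 (SE 0.27, adjusted p = 0.981). Eln, the elastin precursor and a further substrate of lysyl oxidases, was at 0.18 on the same scale (SE 0.29, edgeR adjusted p = 0.678). The count of 3 was 0 when any 1 of wild type libraries 2 and 3 and Tnc-/- libraries 3 and 4 was left out. It was 1 without Tnc-/- library 2, 2 without Tnc-/- library 1 and 5 without wild type library 1, where 14113 of 21989 genes were called. It was also 0 with limma voom, with the replicate number as a block, with receptor background as a covariate and with either Bonferroni adjustment, and 1 with library totals or upper-quartile scaling.

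Several members, among them P4ha1, P4ha2, Plod2 and Lox, are known targets of the hypoxia response, so other genes of that response were listed. Of 22 listed genes 21 were tested, and 4 were past the threshold, all higher in Tnc-/-, with a median log2 fold change of 0.26; over all genes 29.0% were called, 10.3% higher and 18.7% lower. Vegfa, an angiogenic growth factor, was at 103, 95.7 and 78.9 CPM in wild type and at 149, 199, 185 and 172 CPM in Tnc-/- (log2 fold change 0.93, SE 0.15, edgeR adjusted p = 0.00711). Pfkfb4, a regulator of glycolysis, rose from 32.7 ± 7.64 CPM (SD, n = 3) to 65.5 ± 7.55 CPM (SD, n = 4; log2 fold change 1.0, SE 0.18, edgeR adjusted p = 0.00786). Every Tnc-/- library lay above every wild type library in both, and both calls held without each library in turn. With receptor background as a covariate both were lost (0.73, edgeR adjusted p = 0.148 for Vegfa and 0.54, adjusted p = 0.265 for Pfkfb4). That covariate is confounded with genotype, and the fit called 406 of 17791 genes. Ddit4 (log2 fold change 1.05, edgeR adjusted p = 0.0338) and Pfkfb3 (0.53, adjusted p = 0.0461) were also higher, and lost their calls in 4 and 6 of the 7 fits that left out 1 library. Without wild type libraries 2 and 3 the values were 0.76 for Vegfa, 0.66 for Pfkfb4, 1.18 for Ddit4 and 0.60 for Pfkfb3. The count of 4 was 0 with the covariate and with edgeR and Bonferroni adjustment, and 1 with DESeq2 and Bonferroni adjustment. It was 2 with limma voom and with the replicate block, both higher, and 2 among genes spanning up to 30 kb, 1 higher and 1 lower. Leaving out 1 library gave 2 to 11, with 2 for wild type library 3 and Tnc-/- libraries 3 and 4. It was 11 (10 higher and 1 lower) without wild type library 1, where 14113 of 21989 genes were called. Of the 4 members named as targets of this response, P4ha2 had a value above 0 (0.29) and P4ha1, Plod2 and Lox had values below 0 (-0.14, -0.12 and -0.43), none past the threshold. Tnc-/- library 4 was the highest Tnc-/- library in 3 of these 21 genes. Marker lists of other cell types differed in their medians: the median log2 fold change was 0.65 for skeletal muscle (2 of 10 called, both higher), 1.20 for erythroid cells (5 of 7 called, all higher) and 1.16 for neutrophils and marrow myeloid cells (5 of 8 called, all higher), 0.35 for macrophages (0 of 8 called), -0.081 for cartilage (0 of 8 called), -0.061 for osteoblasts and bone (2 of 8 called, 1 higher and 1 lower), 0.0071 for fibroblasts and tendon (2 of 9 called, both lower) and -0.099 for endothelium (3 of 6 called, 1 higher and 2 lower). Their part in the levels of the hypoxia genes was not tested.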

How the data were processed

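Each library has 1 deposited file of read counts by gene, not normalised. Per the submitters' processing notes, FastQC 0.11.9, HISAT2 2.2.1, HTSeq 2.0.2, DESeq2 1.38.3 and build GRCm39 (mm39) were used (no roles stated), and per the series' design text the authors adjusted DESeq2 p-values by Bonferroni; the annotation and the strand setting are not given in the sources used here. Libraries were made from poly(A) RNA, per the labels' protocols. The Tnc-/- files hold 5 rows that name no gene, with 30.1 to 32.7% of the listed reads, which were left out; the wild type files hold none. The 56854 identifiers in all files entered an edgeR fit (version 4.0.16, R 4.3.3; default filterByExpr, TMM scaling, robust quasi-likelihood F test, genotype as the 1 term, Benjamini-Hochberg adjustment, threshold 0.05). CPM are counts per 1000000 counts of the TMM-scaled library. Standard errors were derived from the fold change and F, as their ratio after taking the root of F, and intervals are 95% t intervals. Ratios were compared with exact permutation tests over 35 splits. Gene spans and exon lengths came from GENCODE M21 (GRCm38), which held 91.5% of the identifiers; it is not the build of the counts, and the printed promoter coordinates are on GRCm38.p6. DESeq2 1.42.0 and limma 3.58.1 served as alternatives, and the fits were tested on simulated data.

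The members, lists and tests were chosen with earlier results of these data known. Named genes were the 10 members, listed biosynthesis genes (up to 8) and hypoxia genes (up to 4) with an adjusted p under 0.05, and Col1a1, Col1a2, Col3a1 and Eln; others are marked as chosen after their values were seen, apart from genes of likeness (3 per member for Lox, Plod2, P4ha1 and Serpinh1), markers and Htra2, which overlaps Loxl3.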

Additional observations from a re-analysis of the deposited data

Results flagged for a closer look

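In the 4 Tnc-/- libraries 15 values were examined for a library far from the others by Dixon's test at its 95% critical value, which chance passes in about 1 of 20 groups; the values are not independent, since they come from the same libraries. Tnc-/- library 4 stood apart in Loxl3 at 116 CPM (second highest 80.3 CPM), Plod1 at 239 CPM (157 CPM), P4ha2 at 121 CPM (74.8 CPM) and Serpinh1 at 1474 CPM (934 CPM). It also stood apart in the log2 ratio of P4ha1 to P4ha2, at 0.061, the lowest. Tnc-/- library 3 stood apart in the log2 ratio of Plod2 to Plod1, at 0.081, where the lowest was -0.12.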

How the results depend on the processing

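The count of called genes was 5159 of 17791 with all libraries, 6249 with DESeq2, 2229 to 14113 when 1 library was left out (highest without wild type library 1), 825 without wild type libraries 2 and 3, 973 with limma voom, 406 with receptor background as a covariate, 1995 among genes spanning up to 30 kb (an alternative added after seeing the data), 1653 with DESeq2 and Bonferroni adjustment and 22 with edgeR and Bonferroni adjustment. The count of called members was 1 (Lox) with DESeq2, with library totals and in the 30 kb set (which holds 6 members), and 0 in the other 18 alternatives. The count of called biosynthesis genes was 1 with voom and with DESeq2 and Bonferroni adjustment and 3 in the 30 kb set. It was 0 with the covariate and with edgeR and Bonferroni adjustment, and 1 to 14 when 1 library was left out. Replicate numbers are shared between the groups, and no statement in the sources used here pairs the mice. The deviations of same-numbered libraries correlated at -0.0053, 0.10 and -0.0055 over 17791 genes, which cannot exclude a pairing. With the replicate number as a block, 1932 genes, 0 members and 1 biosynthesis gene were called.

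The following log2 fold changes changed sign; none of the member, Col1a1, Col1a2, Col3a1 and Eln values among them passed a threshold in either direction. Except for library totals, the cause was not tested. With DESeq2 (both adjustments), Loxl1 was -1.5e-04 and Serpinh1 -0.012, and with DESeq2 size factors in edgeR they were -1.6e-04 and -0.012. Library totals move the median of all genes from -9.0e-04 to -0.22, and the values below moved by about as much. They were -0.18 for Loxl1, -0.071 for Loxl3, -0.041 for Loxl4, -0.081 for Plod1, -0.18 for Serpinh1, -0.17 for Col1a2 and -0.034 for Eln. With upper-quartile scaling, they were -0.020 for Loxl1, -0.032 for Serpinh1 and -0.022 for Col1a2, and with at least 10 counts in every library -0.035, -0.045 and -0.029. With no filter on low counts, Loxl2 was 0.036 and Col3a1 0.063. Without wild type libraries 2 and 3, values were -0.16 for Loxl1, -0.28 for Serpinh1, -0.11 for Col1a1, -0.33 for Col1a2 and -0.25 for Eln. With the replicate block, they were -0.13 for Loxl1, -0.0089 for Loxl3, -0.052 for Plod1, -0.15 for Serpinh1, -0.13 for Col1a2 and -0.055 for Eln. With the covariate, they were -0.28 for Loxl1, -0.082 for Plod1, -0.022 for P4ha2, -0.44 for Serpinh1, -0.38 for Col1a1, -0.59 for Col1a2, -0.49 for Eln, 0.61 for Tll1, 0.28 for Adamts3 and 0.16 for P3h2. In the 30 kb set, they were -0.17 for Loxl1, -0.067 for Loxl3, -0.038 for Loxl4, -0.076 for Plod1 and -0.17 for Serpinh1.

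Leaving out 1 library gave -0.14 to 0.25 for Loxl1, -0.22 to 0.097 for Loxl2, -0.013 to 0.28 for Loxl3, -0.056 to 0.30 for Plod1, -0.30 to 0.059 for Plod2, -0.24 to 0.11 for P4ha1, -0.18 to 0.31 for Serpinh1, 0.058 to 0.30 for Loxl4, 0.068 to 0.48 for P4ha2, 0.032 to 0.59 for Col1a1, -0.17 to 0.37 for Col1a2, -0.23 to 0.23 for Col3a1 and -0.081 to 0.55 for Eln. The log2 ratio difference of Serpinh1 to the 3 collagens ranged from -0.21 to 0.092 (0.092 without wild type library 2), and those of P4ha1 to P4ha2 (-0.47 to -0.30), Loxl1 to Lox (0.33 to 0.60), Loxl2 to Lox (0.24 to 0.48) and Plod2 to Plod1 (-0.41 to -0.092) kept their sign. The smallest counts among the members were those of Loxl4, at 195 to 369 per library.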
